A study of Mus musculus with 45 samples.

Results

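Pxdn and 7 genes around it on mouse chromosome 12 (Adi1, Trappc12, Myt1l, Sntg2, Tmem18, Acp1 and Sh3yl1) were followed from the fully grown oocyte (FGO) to the late two-cell embryo. These 8 genes, all present among the 26214 genes of the deposited table, were taken by symbol. Pxdn was selected on its measured level, high in two-cell embryos derived from K36M oocytes and low in control embryos, so its two-cell values are a description and were not tested. The 7 neighbours were taken for their place beside it, and the question asked of them was whether the difference seen for Pxdn extended along the chromosome.

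RNA was measured in 4 groups: 3 libraries of control FGOs, 3 of K36M FGOs, 7 of control oocyte-derived and 8 of K36M oocyte-derived two-cell embryos. All females carried the H3f3b K36M-flox/+ allele, controls included, on a mixed C57BL/6 and 129 background. K36M females also carried Gdf9-Cre, in which the oocyte-specific Gdf9 promoter drives Cre, so that histone H3.3 with the K36M substitution was made from H3f3b in their oocytes. FGOs, from females aged 3 to 4 weeks, were pooled for each library, whereas each two-cell library was 1 embryo, harvested 31 to 32 h after fertilization in vitro, with JF-1 as the paternal strain in the labels. Since the oocytes were heterozygous, a K36M oocyte-derived embryo could inherit either H3f3b allele, and the labels do not say which. A further control embryo, replicate 4, was set aside by the authors for a technical problem and is used here only as an alternative. The labels do not tie libraries to separate females, so p-values measure only the spread between these libraries.

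Values were TPM (read counts per gene length, scaled to a common sum per library). TPM does not carry sequencing depth, so the reads behind a gene's value cannot be read from the table. Between 16707 and 18559 genes were above 0 in the FGO libraries, 12115 to 17329 in control and 10894 to 14879 in K36M oocyte-derived two-cell embryos. Oocyte markers summed to 15447 TPM or more in every FGO library and zygotic genome activation markers to 270.4 TPM or more in every embryo. The summed level of 8 granulosa and cumulus markers, all above 0 in some embryo of both groups, spanned 0.66 to 111 TPM in control and 0 to 143 TPM in K36M oocyte-derived embryos. The 8 stroma and vessel markers spanned 27.5 to 80.9 and 24.5 to 119 TPM (Dcn was at 0 in all K36M oocyte-derived embryos), and the 5 blood markers 0 to 15.4 and 0 to 59.5 TPM (Hbb-bt was at 0 in all embryos, and Hbb-bs and Ptprc in all control embryos). Pecam1, which was at 53.0 to 65.7 TPM in the FGO libraries, held much of the stroma and vessel sum, with 18.5 to 54.0 TPM in control and 15.5 to 98.1 TPM in K36M oocyte-derived embryos. These sums and the lower number of genes above 0 stand beside all two-cell values that follow, and their part in them was not tested.

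Pxdn encodes peroxidasin, a secreted heme peroxidase that makes the sulfilimine bonds which crosslink collagen IV in basement membranes. Methylation of H3K36 and of DNA can cover chromatin domains that hold several genes or single promoters, which is why the genes beside Pxdn are of interest. H3.3K36M acts on the enzymes that methylate H3K36, and the methylation pattern of the oocyte genome is passed to the maternal chromosomes of the embryo.

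In RefSeq GRCm38.p6, the assembly of mm10, Pxdn lies on the plus strand at chr12:29936642-30017658. Before it lie Myt1l, with a gap of 13.4 kb, and, beyond 1 Mb, Trappc12 at 1186 kb and Adi1 at 1254 kb. Of the listed neighbours after it, Sntg2 lies at 157 kb, Tmem18 at 567 kb, Acp1 at 876 kb and Sh3yl1 at 894 kb. Acp1 on the minus strand ends at 30911619 and Sh3yl1 on the plus strand starts at 30911669, so the pair starts head to head. The 1 Mb on each side of Pxdn holds 23 RefSeq genes besides it, of which 11 are in the table, 5 of them listed neighbours. Several of these genes overlap others on the opposite strand: a long noncoding RNA gene, Gm31939, covers 1346 bases at the 5′ end of Pxdn, C630031E19Rik lies within Myt1l, and Alkal2 overlaps Acp1 by 531 bases. Gm31939 ends at 29937987, before the start of the curated Pxdn transcript at 29938036, so it overlaps only a longer predicted transcript of Pxdn. The strand setting of the counting is not given in the sources used here, so values of overlapping genes are uncertain.

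Pxdn has 3 RefSeq transcripts, a curated one of 23 exons that starts at 29938036, a predicted one of 22 exons from 29936642 and a predicted one of 11 exons that starts inside the gene at 29996438. The TPM values do not tell them apart. Which of the starts was used in the embryos is thus not known. The 30 bases just before the curated start, chr12:29938006-29938035 on the plus strand, also lie within the first exon of the predicted transcript from 29936642. They are shown because they mark the curated start, a place at which the higher Pxdn level could be followed up. CG pairs, the sites of CG methylation, are in capitals:
Pxdn: cccccCGCGcacagctgggaCGtgggcCGg
The RefSeq promoter entry of Pxdn, from 250 bases before the curated start, holds 14 CG pairs, counted as the letters CG, against a median of 6 in 32851 mouse promoters, and 29.4% of those hold at least as many. Among the neighbours with an entry, the promoters of Trappc12 and Tmem18 hold 15 CG pairs each, those of Acp1 and Sh3yl1 22 and 23, that of Sntg2 9 and the 5 entries of Myt1l 3 to 12. Pxdn is thus not set apart from its neighbours by this count, which is a description of sequence only.

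Pxdn was low in both kinds of FGO. Its TPM was 0.28, 1.21 and 1.98 in the 3 control FGO libraries and 0.65, 0.16 and 1.17 in the 3 K36M FGO libraries. The groups overlapped, and the mean log2(TPM + 1) was 1.03 ± 0.62 (SD, n = 3) in control and 0.69 ± 0.45 (SD, n = 3) in K36M FGOs. The difference of -0.34 gave p = 0.4 in a two-sided exact permutation test, whose smallest possible p with 3 against 3 libraries is 0.1. Pxdn was below the mean TPM of 1 required for the fit across genes in FGOs.

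In two-cell embryos Pxdn stayed low in controls and was higher in every K36M oocyte-derived embryo. Among the 7 control embryos its TPM was 0 in 2, 0.077 in 1 and 0.55 to 1.88 in the other four, with a median of 0.55. Among the 8 K36M oocyte-derived embryos it was 7.24 at the lowest, 13.9 at the median and 43.8 at the highest. The groups did not overlap, and the lowest K36M oocyte-derived embryo also lay above the highest FGO library. A whole-embryo library cannot tell more RNA in 1 blastomere from more RNA in both. The mean log2(TPM + 1) was 0.67 ± 0.65 (SD, n = 7) for the control embryos and 4.02 ± 0.89 (SD, n = 8) for those from K36M oocytes, a difference of 3.36, which ranked 1 of 17362 genes on this scale. With quantile normalization the difference was 3.52, with median-of-ratios scaling 3.36, and without any 1 library 3.15 to 3.50. With a pseudocount of 0.1 in place of 1 it was 5.04, since the controls are close to 0.

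**Figure D1:**
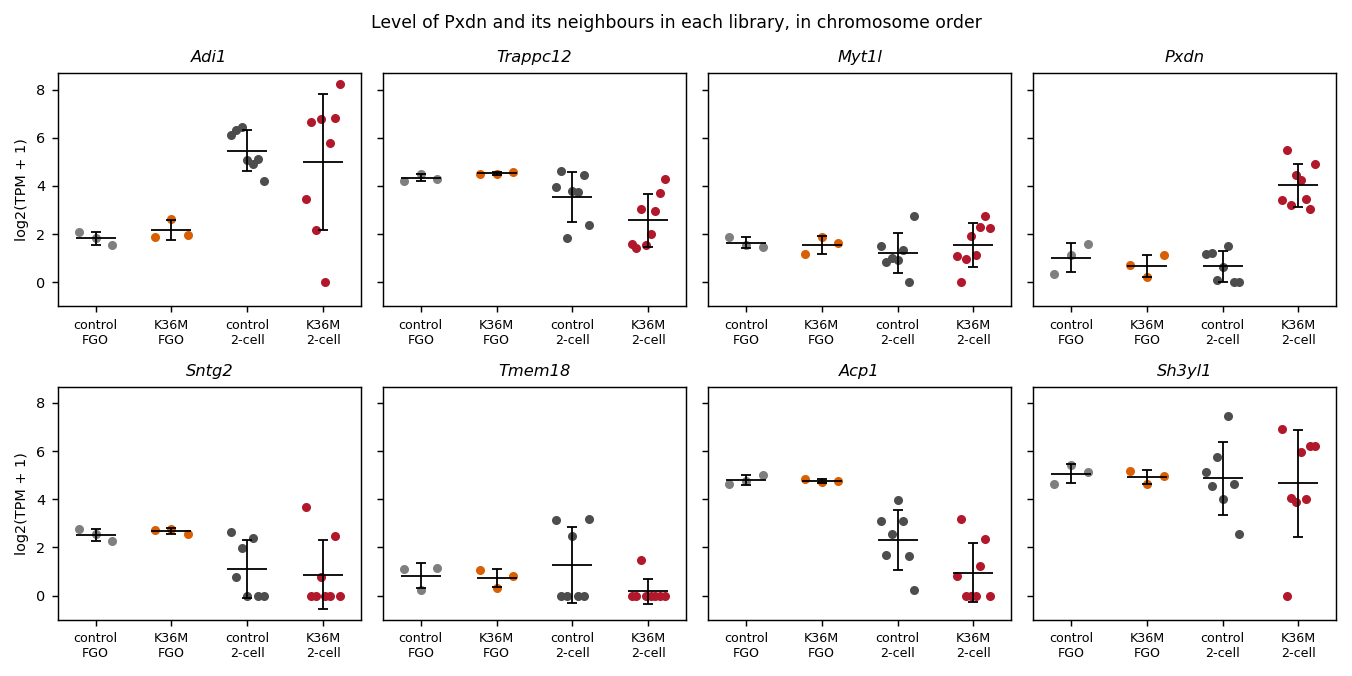
Level of each gene in each library, as log2(TPM + 1), in 4 groups (points, libraries; bars, mean ± SD; n = 3, 3, 7 and 8). The 8 K36M oocyte-derived embryos stand above all other libraries for Pxdn only, while the groups of each neighbour overlap in two-cell embryos.

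No neighbour passed the test in two-cell embryos. With limma on log2(TPM + 1), adjusted by Benjamini-Hochberg over 17362 genes, 0 of the 7 neighbours passed 0.05, where 0% of all genes tested did, and 0 had an unadjusted p under 0.05, where 7.71% of all genes did (1.20% higher and 6.50% lower). The median log2 fold change of the 7 was -0.47 (1 above 0 and 6 below), beside -0.26 over all genes tested, a shift that quantile normalization reduced to -0.01 and under which 2 neighbours were above 0 and 5 below. The groups of 0 of the 7 neighbours were without overlap, beside 0.115% of all genes. The 4 genes tested (0.0230%) that were higher in every K36M oocyte-derived embryo than in any control were Pxdn, Acbd5, Cenpt and Ilrun, the last 3 named after their values were seen and located on chromosomes 2, 8 and 17.

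The nearest listed neighbour was examined first. Myt1l, a zinc finger transcription factor of neurons, had a TPM of 0 to 5.71 (median 1.00) in control and 0 to 5.83 (median 2.00) in K36M oocyte-derived embryos. The ranges were almost the same, and 1 embryo of each group was at 0. The log2 fold change of Myt1l was 0.36 (SE 0.65, 95% interval -0.98 to 1.70, adjusted p = 0.886 by limma). Over the alternatives it ran from 0.052 to 1.02, with a lowest adjusted p of 0.815 by limma.

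Sntg2 and Tmem18, the first listed neighbours after Pxdn, were low or listed at 0 in many embryos. Sntg2, a syntrophin that links signalling proteins to the dystrophin complex, was at 0 in 3 of the 7 control and 5 of the 8 K36M oocyte-derived embryos, and its highest values were 5.19 and 12.0 TPM. Its log2 fold change was -0.24 (SE 0.71, 95% interval -1.71 to 1.23, adjusted p = 0.937 by limma), but 0.27 with quantile normalization and 0.013 without control replicate 1. Tmem18, a small membrane protein of the nuclear envelope, had 4.60, 7.79 and 8.11 TPM in 3 control embryos and 0 in the other four. In K36M oocyte-derived embryos Tmem18 was above 0 only in replicate 3, with 1.79 TPM. Its log2 fold change was -1.07 (SE 0.63, 95% interval -2.38 to 0.23, adjusted p = 0.680 by limma). The number of embryos above 0 was not itself tested.

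Acp1 and Sh3yl1, the head-to-head pair, differed from each other in level. Acp1, a low molecular weight tyrosine phosphatase, had 0.17 to 14.5 TPM (median 4.83) in the control embryos, in all of which it was above 0, whereas it was at 0 in 4 of the 8 K36M oocyte-derived embryos and reached 8.13 TPM at the highest. Its log2 fold change of -1.36 was the largest of the 7 in size (SE 0.75, 95% interval -2.91 to 0.18, adjusted p = 0.676 by limma), with an exact permutation p of 0.0547. Sh3yl1, an adaptor that binds membrane phosphoinositides, had 4.90 to 175 TPM (median 23.5) in control and 0 to 121 TPM (median 38.5) in K36M oocyte-derived embryos. Single embryos thus differed by more than the groups did. The log2 fold change of Sh3yl1 was -0.21 (SE 0.85, 95% interval -1.97 to 1.55, adjusted p = 0.956 by limma), but 0.46 without K36M oocyte-derived replicate 2, the embryo at 0, and 0.22 without control replicate 6, the embryo at 175 TPM.

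The 2 genes beyond 1 Mb on the other side also overlapped between groups. Trappc12, a subunit of the TRAPP complex of vesicle transport, had 2.54 to 23.7 TPM (median 12.8) in control and 1.71 to 18.7 TPM (median 4.93) in K36M oocyte-derived embryos, and was above 0 in every library. Its log2 fold change was -0.96 (SE 0.71, 95% interval -2.43 to 0.50, adjusted p = 0.739 by limma), and -1.25 to -0.27 over the alternatives. Adi1, an acireductone dioxygenase of the methionine salvage pathway, had 17.4 to 86.8 TPM (median 33.6) in control embryos. In K36M oocyte-derived embryos Adi1 ran from 0 in replicate 5 to 302 TPM in replicate 8 (median 77.1), so that 3 embryos lay below the lowest control and 4 above the highest. The log2 fold change of Adi1 was -0.47 (SE 0.91, 95% interval -2.35 to 1.41, adjusted p = 0.895 by limma), but 0.24 without replicate 5.

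**Figure D2:**
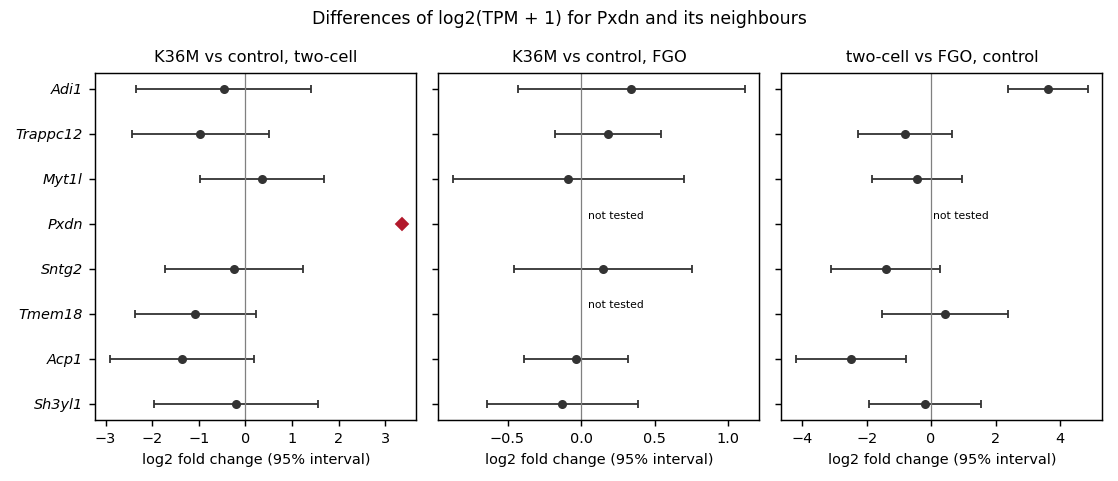
Difference of log2(TPM + 1) with its 95% interval from limma for K36M against control two-cell embryos, K36M against control FGOs, and control two-cell embryos against control FGOs, with the genes in chromosome order (Pxdn, untested, is a diamond at 3.36). In the left and middle panels every interval of a neighbour includes 0, and in the right panel Adi1 (3.63) and Acp1 (-2.49) lie clear of it.

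The same held for the tested genes near Pxdn, whether listed or not. Of the 11 genes of the table within 1 Mb, 9 could be tested, and 0 passed an adjusted p of 0.05 or an unadjusted p of 0.05 by limma, with 4 above 0 and 5 below (5 above 0 and 4 below with quantile normalization) and a median log2 fold change of -0.21. The other two, the noncoding RNA genes Gm31508 and 2310016D03Rik, were at 0 in at least 6 embryos of each group. Within 5 Mb of Pxdn, 48 other genes were tested, 0 passed the adjusted threshold and their median was -0.20. Among these, Sox11, a transcription factor of progenitor cells, at -1.87, and Ccdc71l at -2.36 had an unadjusted p under 0.05, both lower, beside 7.71% of all genes (6.50% lower). They were named after their values were seen.

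**Figure D3:**
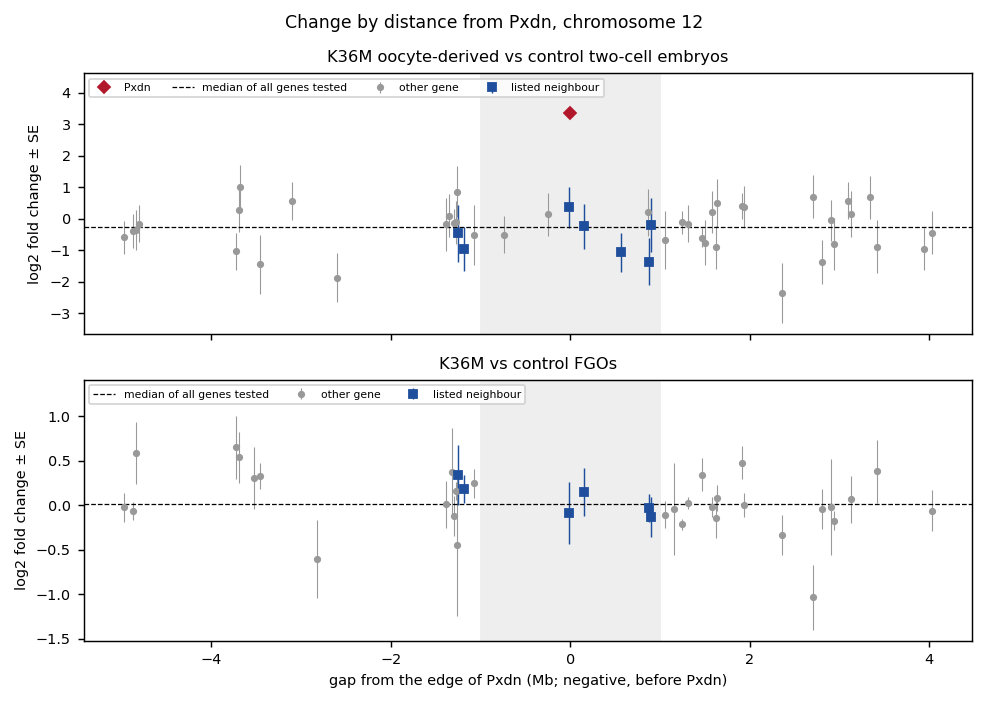
Log2 fold change ± SE against the gap from the edge of Pxdn in Mb, for genes within 5 Mb, in two-cell embryos (top) and FGOs (bottom; grey band, 1 Mb on each side; dashed line, median of all genes tested). In two-cell embryos Pxdn stands alone at 3.36, and the nearest listed neighbours on each side, Myt1l at 0.36 and Sntg2 at -0.24, lie among the others.

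The place of Pxdn among the genes around it differed between the groups of embryos. Its order and share are a description, since they rest on the two-cell values for which Pxdn was selected. In control embryos the order of median TPM was Adi1, Sh3yl1, Trappc12, Acp1, Myt1l, Sntg2, Pxdn and Tmem18, and each gene overlapped the next in range. In K36M oocyte-derived embryos Pxdn came after Adi1 and Sh3yl1, and its range overlapped those of Sh3yl1 above it and Trappc12 below it. Between 4 and 7 of the 7 neighbours had a higher TPM than Pxdn in each control embryo, against 1 to 3 in each K36M oocyte-derived embryo. Pxdn made up 0 to 4.23% (median 0.87%) of the TPM summed over the genes of the 1 Mb window and Pxdn in control embryos, and 6.54 to 61.4% (median 25.7%) in K36M oocyte-derived embryos. The TPM of the other window genes together spanned 18.9 to 213 in control and 17.2 to 139 in K36M oocyte-derived embryos, and within the K36M oocyte-derived embryos the share did not follow the order of Pxdn: it was 30.1% in replicate 3, with 8.14 TPM of Pxdn, and 17.6% in replicate 5, with 17.9 TPM.

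The spread of Pxdn among the 8 K36M oocyte-derived embryos was set against each neighbour. Pxdn was selected on these embryos being high as a group, which can limit its spread, but not on their order. Pearson's r of log2(TPM + 1) with Pxdn was -0.54 for Sh3yl1, -0.48 for Sntg2, -0.43 for Myt1l, -0.38 for Tmem18, -0.27 for Trappc12, 0.15 for Acp1 and 0.34 for Adi1, and Spearman's rho ranged from -0.46 for Sntg2 to 0.26 for Adi1. In two-sided exact permutation tests of these 7 relations, 0 passed an adjusted p of 0.05 (unadjusted p 0.163 to 0.722 and adjusted p 0.588 to 0.722 for r; unadjusted p 0.262 to 0.912 and adjusted p 0.626 to 0.912 for rho). Tmem18 was above 0 in 1 of these embryos only, so that its relation could not have passed. Leaving out the 2 embryos farthest from the median Pxdn level changed r to between -0.75 for Trappc12 and -0.16 for Adi1, so that Acp1 (-0.66) and Adi1 changed sign. Replicate 2, with the most Pxdn (43.8 TPM), had Acp1 at its highest (8.13 TPM) and Myt1l, Sntg2, Tmem18 and Sh3yl1 at 0. Replicate 8, with 29.1 TPM of Pxdn, had the most Adi1 and Trappc12. These 2 embryos also had the fewest genes above 0 of the 8, 10894 and 11178, followed by replicates 5 and 4 (17.9 and 20.9 TPM of Pxdn) with 12554 and 12744 genes. Replicates 3, 6 and 7, with 7.24 to 9.88 TPM of Pxdn, had 14201 to 14879 genes above 0, and replicate 1, with 9.76 TPM, had 13244. The part of this number in the level of Pxdn and in the zeros of its neighbours was not tested.

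**Figure D4:**
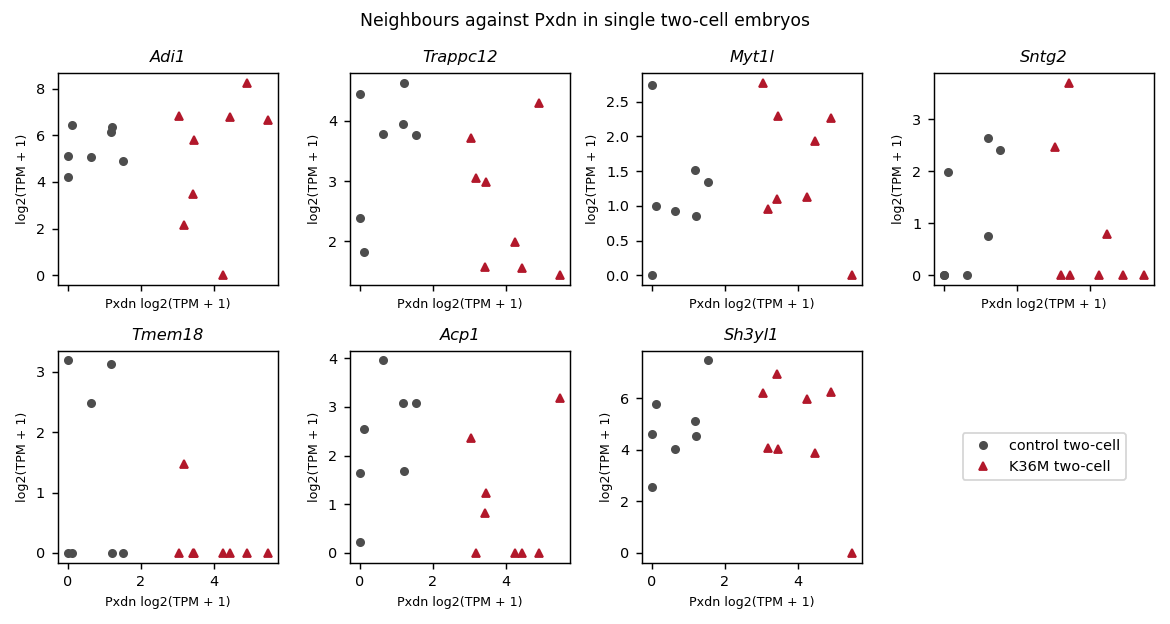
Log2(TPM + 1) of each neighbour against that of Pxdn in single two-cell embryos (circles, 7 control; triangles, 8 K36M oocyte-derived). Pxdn separates the groups along each horizontal axis, and no neighbour does so along its vertical axis, where r within the K36M oocyte-derived embryos lay between -0.54 and 0.34.

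The genes whose level was most like that of Pxdn across all 21 libraries are given as a description, since the high values of Pxdn in these libraries are those it was selected on. The highest Pearson's r of log2(TPM + 1) among 17357 genes was that of Gusb, the lysosomal enzyme beta-glucuronidase, on chromosome 5 (0.83). It was followed by Cenpt, a kinetochore protein, on chromosome 8 (0.82), Serf2 on chromosome 2 (0.80), Hmgb1, a chromatin protein, on chromosome 5 (0.77), and Clta, a clathrin light chain, on chromosome 4 (0.77). Within the 8 K36M oocyte-derived embryos alone r was 0.55 for Gusb and Serf2 and 0.093 to 0.13 for the other three. The 7 neighbours ranged from -0.53 for Acp1 to 0.27 for Adi1.

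In FGOs, where Pxdn itself was not higher in the K36M group, no difference of a neighbour passed the test. With limma over 13775 genes, 0 of the 6 neighbours that could be tested passed an adjusted p of 0.05, beside 0.00726% of all genes (1 gene, Cdo1, named after its value was seen), and 0 had an unadjusted p under 0.05, beside 10.5%. Acp1 was 23.6, 26.4 and 31.3 TPM in control and 27.9, 25.1 and 25.9 TPM in K36M FGOs, and its log2 fold change was -0.03 (SE 0.16, 95% interval -0.39 to 0.32, adjusted p = 0.955 by limma). Trappc12 was 17.5, 21.5 and 18.8 TPM in control and 21.4, 21.8 and 22.9 TPM in K36M FGOs. Its log2 fold change was 0.19 (SE 0.16, 95% interval -0.17 to 0.55, adjusted p = 0.684 by limma), and the highest control lay above the lowest K36M library.

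The other FGO comparisons were similar. Sh3yl1 was 23.7 to 41.7 TPM in control and 24.0 to 35.4 TPM in K36M FGOs, with a log2 fold change of -0.13 (adjusted p = 0.864). Adi1 was 1.93 to 3.26 against 2.64 to 5.27 TPM (0.34, adjusted p = 0.736), Sntg2 3.77 to 5.82 against 4.83 to 5.78 TPM (0.15, adjusted p = 0.866) and Myt1l 1.77 to 2.71 against 1.23 to 2.65 TPM (-0.09, or 0.0096 with quantile normalization, adjusted p = 0.948). Tmem18 was at most 1.19 TPM in any FGO library, too low for the fit, and gave p = 0.8 in the exact permutation test. The groups overlapped for all 7 neighbours, beside 15.6% of all genes without overlap, and the median log2 fold change of the 6 tested was 0.06, beside 0.01 over all genes.

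Whether the effect of the K36M oocyte differed between stages was tested as an interaction over 21 libraries, which uses the same libraries as the comparisons within each stage. Of the 7 neighbours, 0 passed an adjusted or an unadjusted p of 0.05 by limma, beside 0% and 1.15% of 17358 genes. The estimates ran from -1.33 (SE 1.15) for Acp1 to 0.45 (SE 0.93) for Myt1l. For each neighbour the spread among single embryos was wider than that among pooled FGO libraries.

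From control FGOs to control two-cell embryos, 2 of the 7 neighbours changed by limma at an adjusted p of 0.05, where 30.5% of all 16914 genes did (15.0% higher and 15.5% lower). This comparison shares its control libraries with those above. Adi1 rose from 1.93 to 3.26 TPM in FGOs to 17.4 to 86.8 TPM in embryos, without overlap (as for 32.7% of all genes in either direction), by 3.63 on the log2 scale (SE 0.57, adjusted p = 0.000412). Acp1 was lower, at 0.17 to 14.5 TPM in embryos against 23.6 to 31.3 TPM in FGOs, also without overlap, a log2 fold change of -2.49 (SE 0.79, adjusted p = 0.0302). That call for Acp1 was lost without any 1 of the 3 control FGO libraries (adjusted p 0.106 to 0.132) and with a pseudocount of 0.1 (adjusted p = 0.0694), while Adi1 kept its call in each alternative. Sh3yl1, which shares its 5′ border with Acp1, had a log2 fold change of -0.19 (SE 0.80, adjusted p = 0.875). Trappc12 (-0.80), Myt1l (-0.44), Sntg2 (-1.41) and Tmem18 (0.43) did not pass the test either. Pxdn was 0.28 to 1.98 TPM in control FGOs and 0 to 1.88 TPM in control embryos, so its ranges at the 2 stages overlapped. Neither Adi1 nor Acp1 passed the test between control and K36M at either stage.

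The genes with which peroxidasin works were examined as a list of 28, made of collagen IV chains, laminins, nidogens, other basement membrane genes and the heme peroxidases, Pxdn included. In two-cell embryos 24 of the 27 besides Pxdn could be tested by limma, 0 passed an adjusted p of 0.05 (0% of all genes) and 0 an unadjusted p of 0.05 (7.71%). Their median log2 fold change was -0.02, with 11 above 0 and 13 below, beside -0.26 over all genes. Col4a1 and Col4a2 encode 2 of the collagen IV chains, the substrate that peroxidasin crosslinks. Col4a1 was 2.42 to 17.6 TPM (median 5.84) in control and 0 to 17.8 TPM (median 7.72) in K36M oocyte-derived embryos, with a log2 fold change of -0.02 (SE 0.74, adjusted p = 0.994 by limma). Col4a2 was 1.66 to 7.59 TPM (median 3.03) and 2.61 to 11.4 TPM (median 5.34), with a log2 fold change of 0.47 (SE 0.66, adjusted p = 0.844 by limma). These 2 substrate genes were thus measured in both groups of embryos at levels that overlapped.

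The other heme peroxidase genes described here overlapped between the groups of embryos. Mpo, myeloperoxidase, was at 0 in 5 of the 7 control and 6 of the 8 K36M oocyte-derived embryos, with a log2 fold change of -0.01 (SE 0.73, adjusted p = 0.996 by limma). Lpo, lactoperoxidase, was at 0 in 4 and 5 of them and reached 0.93 and 9.24 TPM, with a log2 fold change of 0.56 (SE 0.61, adjusted p = 0.788 by limma). Epx, eosinophil peroxidase, was below the minimum for the test. Among these and Pxdn, only Pxdn had groups of embryos without overlap, which is what it was chosen for.

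In FGOs 18 of the 28 listed genes could be tested, and 0 passed an adjusted p of 0.05 by limma (0.00726% of all genes), while 2 had an unadjusted p under 0.05 (10.5% of all genes). Sparc, a matricellular protein that binds collagen IV, was 0.29 to 0.99 TPM in control and 1.43 to 3.52 TPM in K36M FGOs, and its log2 fold change was 1.00 (SE 0.41, unadjusted p = 0.0370, adjusted p = 0.448 by limma). Lamb1, the laminin beta-1 chain, was 1109 to 1132 TPM in control and 915 to 1023 TPM in K36M FGOs, and its log2 fold change was -0.21 (SE 0.064, unadjusted p = 0.00907, adjusted p = 0.383 by limma). Lamb1 also lies on chromosome 12, 1247 kb beyond Pxdn. Col4a1 (14.0 to 20.9 against 21.4 to 27.2 TPM) and Col4a2 (7.18 to 8.42 against 9.33 to 12.4 TPM) did not overlap between the groups, nor did Sparc, Lamb1 and Lama2 (the last named after its values were seen), beside 15.6% of all genes without overlap, with log2 fold changes for the collagens of 0.39 and 0.47 and adjusted p = 0.527 and 0.487 by limma. These differences did not pass the adjusted threshold, and the median of the 18 was 0.03.

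**Figure D5:**
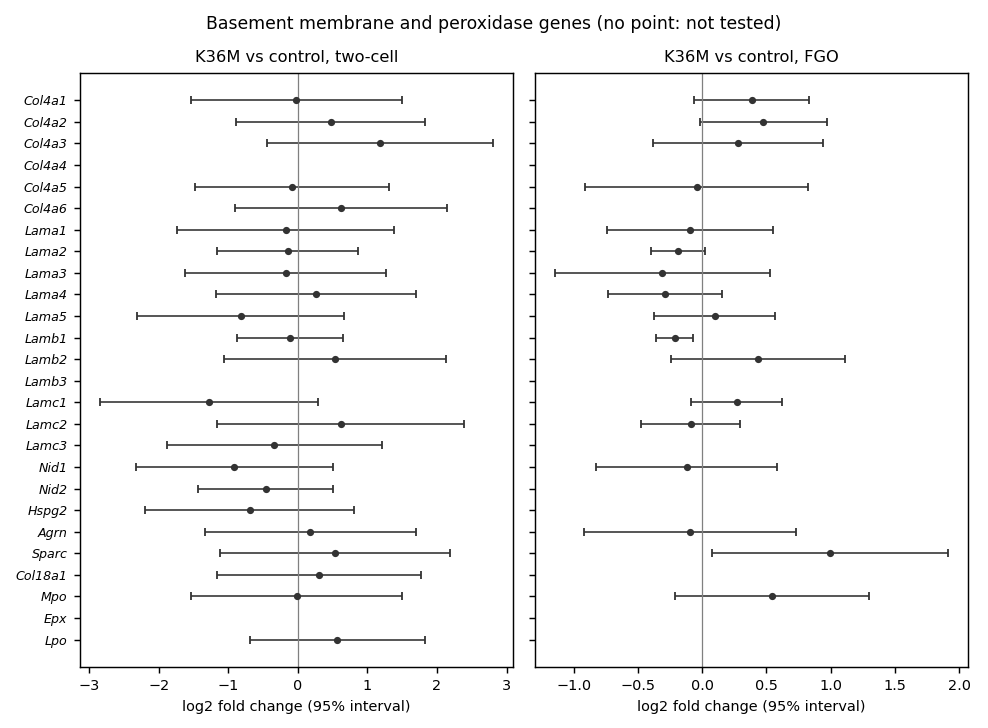
Log2 fold change with its 95% interval from limma for basement membrane and peroxidase genes besides Pxdn, K36M against control, in two-cell embryos (left) and FGOs (right); the horizontal scales differ. In embryos every interval includes 0, and in FGOs the intervals of Sparc (1.00) and Lamb1 (-0.21) do not, before adjustment.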

How the data were processed

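The deposited values were TPM per gene and library, 26214 genes in 22 libraries, of which 21 were used. Per the labels and methods, the authors made libraries with a SMART-Seq stranded kit, trimmed reads with Trim Galore, mapped them with HISAT2 to mm10, removed ribosomal RNA reads, counted with featureCounts and tested counts with edgeR. Gene annotation, gene lengths and strand setting are not given in the sources used here. The TPM values keep no depth, so no count test was made.

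Here limma 3.58.1 (R 4.3.3) was run on log2(TPM + 1) with a mean-variance trend, each stage apart, on genes whose mean TPM reached 1, with Benjamini-Hochberg adjustment over all genes tested and a threshold of 0.05. The script was tested on simulated data. Single values were compared by two-sided exact permutation (scipy 1.17.1, Python 3.11.15). Positions came from RefSeq GRCm38.p6, in which all but 40 symbols were found. Replicate numbers did not pair the libraries. A pseudocount of 0.1, other filters, scalings and weights, the replicate block, each library left out and control replicate 4 added were the alternatives.

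The members and lists were chosen with earlier results of these data known. The genes named were the 8 members, window genes nearer to Pxdn than the nearest listed neighbour on each side or with an unadjusted p under 0.05 in embryos, of the basement membrane and peroxidase list the peroxidases, Col4a1, Col4a2 and up to 3 genes per direction with an unadjusted p under 0.05, and the 5 genes most like Pxdn over 21 libraries. A gene that this rule names is not reported here. Others are said to have been named after their values were seen. The chromatin and DNA methylation libraries of the series were not used here.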

Additional observations from a re-analysis of the deposited data

Results flagged for a closer look

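Of 18 groups of 7 or 8 embryos examined, one per gene and genotype, 2 held an embryo whose distance from its nearest neighbour was large for the range of the group by Dixon's criterion. Tmem18 was at 1.79 TPM in K36M oocyte-derived replicate 3 and at 0 in the other embryos of that group. Sh3yl1 was at 0 TPM in K36M oocyte-derived replicate 2, the embryo with the most Pxdn, and at 13.7 TPM or more in the others. Chance marks about 1 in 20 groups of continuous values, a rate that cannot be applied to groups with many zeros, such as that of Tmem18, where any single value above 0 would be marked.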

How the results depend on the processing

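Over the alternatives run, the number of neighbours, genes within 1 Mb and basement membrane or peroxidase genes past the adjusted threshold stayed at 0 in two-cell embryos, and so did the neighbours and that list in FGOs and the neighbours in the interaction and in the relation to Pxdn. At an unadjusted p under 0.05 by limma, 1 of 7 neighbours, Acp1, was lower in embryos without the mean-variance trend, beside 1244 of 17362 genes lower. With control replicate 4 added, 1 of 7, again Acp1 (-1.48), was lower, beside 1106 of 17765 genes. Acp1 also passed without control replicate 8 (-1.71) or K36M oocyte-derived replicate 2 (-1.68). In the main fit 6.50% of all genes were lower at this p. Over all genes, the fit without the trend called 5 genes in embryos and that with array weights called 1. The main fit, the other filters and scalings, a pseudocount of 0.1, the replicate block and control replicate 4 added called 0. With so few genes called, the count of 0 among the neighbours could hardly have differed, and it does not tell whether they changed. Pxdn differed by 5.04 in embryos with a pseudocount of 0.1 and by 3.15 to 3.50 without 1 library. Between control stages, 2 neighbours were called, 1 with a pseudocount of 0.1 and 1 to 2 without 1 library, with array weights 3, Sntg2 (-1.58, adjusted p = 0.0155 by limma) being added; array weights called 9396 of all genes in place of 5159. Directions that changed were those of Sntg2 in embryos (0.27 with quantile normalization, -0.64 to 0.013 without 1 library), Sh3yl1 in embryos (-0.59 to 0.46 without 1 library), Adi1 in embryos (-0.93 to 0.24), Myt1l in FGOs (0.0096 with quantile normalization, -0.24 to 0.11 without 1 library), Acp1 in FGOs (-0.13 to 0.071), Sh3yl1 in FGOs (-0.34 to 0.051), Tmem18 between stages (-0.33 with a pseudocount of 0.1) and Sh3yl1 between stages (-0.62 to 0.20). None of these values passed the threshold, and the cause was not tested.

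The replicate number as a block left 0 neighbours called in embryos, FGOs and the interaction, where it left 0 of all genes called. Between stages 2 of the 7 neighbours were called, beside 5014 of all 16914 genes, and Sh3yl1 became 0.087. The numbers did not pair the libraries: deviations of libraries with the same number correlated at 0.015 to 0.10 in FGOs and -0.10 to 0.097 in embryos, and 2 of 3 and 1 of 7 control libraries correlated best with their own number. TPM without counts limits what can be said of genes at 0 in single embryos.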
